A study of Homo sapiens with 6 samples.

Results

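The 9 genes described here are the hexokinases HK1, HK2, HK3 and HKDC1, the ADP-dependent glucokinase ADPGK, the glucokinase regulator GCKR, and the mitochondrial outer membrane channels VDAC1, VDAC2 and VDAC3. They were chosen by name from the 79172 gene names in the counts table, and all 9 had a row. Their levels were measured by RNA-seq in Huh7 cells, a line established from a human hepatocellular carcinoma, in 3 libraries of cells overexpressing HK1 and 3 libraries of Control cells. The means of overexpression, the treatment of the Control cells and whether a group is a clone or a pool are not stated in the labels. Nor do the labels say whether replicates came from separate cultures, so p-values measure only the spread between these libraries, which may be technical.

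Hexokinases phosphorylate glucose to glucose 6-phosphate, which holds the sugar in the cell and opens glycolysis, glycogen synthesis and the pentose phosphate pathway to it. HK1 and HK2 carry a hydrophobic tail at the N terminus that docks them on VDAC, the pore through which ATP and metabolites cross the mitochondrial outer membrane, so that the enzyme sits beside newly exported ATP. Hepatocytes rely on glucokinase, which was not analysed here, whereas HK2 is the form best known from liver tumours. GCKR holds glucokinase inactive in the hepatocyte nucleus, and ADPGK phosphorylates glucose with ADP at the endoplasmic reticulum. HKDC1 is a member of the hexokinase family whose gene lies beside HK1.

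The start of the hexokinase coding sequences is shown because it encodes the tail that HK1 and HK2 use for docking. The sequences are the first 63 coding bases in GENCODE release 29 transcripts, on GRCh38. Capitals mark the bases that are the same as in HK1 at that position, counted from the start codon without gaps. HK1 lies at chr10:69318948-69319010, HK2 at chr2:74834581-74834643 and HKDC1 at chr10:69220436-69220498, all on the plus strand. HK3 lies at chr5:176896097-176896159 on the minus strand.
HK1: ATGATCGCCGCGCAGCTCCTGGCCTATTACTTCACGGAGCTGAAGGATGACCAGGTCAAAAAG
HK2: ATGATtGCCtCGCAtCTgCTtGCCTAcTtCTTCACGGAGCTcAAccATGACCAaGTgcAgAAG
HKDC1: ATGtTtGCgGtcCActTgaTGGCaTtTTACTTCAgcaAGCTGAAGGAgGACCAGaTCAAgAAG
HK3: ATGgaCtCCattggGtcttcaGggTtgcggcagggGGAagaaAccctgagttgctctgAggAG
HK2 shared 49 of the 63 bases with HK1, HKDC1 shared 46 and HK3 shared 16. HK3 is the form known to lack the docking tail. Over the aligned coding sequences the differences were more even: HK1 was 75.1% identical to HK2, 74.6% to HKDC1 and 70.9% to HK3. The longest exact run that HK1 shared with HKDC1 was 23 bases, and no 100-base window of HK1 was found unchanged in HK2, HK3 or HKDC1.

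Libraries held 19607663 to 20823072 counts in HK1-overexpressing cells, against 16771835 to 20071846 in Control cells. Levels below are CPM, counts scaled to library size with TMM factors, where libraries are compared, and TPM, which also divides by exon length, where genes are compared. Of 16734 genes tested with edgeR's quasi-likelihood test, 1342 were called at a Benjamini-Hochberg adjusted p of 0.05, with 648 higher and 694 lower in HK1-overexpressing cells. The Control libraries differed from each other more than the HK1-overexpressing ones did, with a chi-square per degree of freedom of 5.08 to 11.3 among Control pairs and 1.58 to 2.28 among HK1-overexpressing pairs, so no pair was a repeat of 1 library. Of 8 hepatocyte and hepatoma markers, 5 fell, and their summed level was 9652 to 9967 CPM in HK1-overexpressing libraries and 12267 to 13236 CPM in Control libraries. ALB averaged 3415 ± 68.4 CPM in HK1-overexpressing cells and 4925 ± 108 CPM in Control cells, and HNF4A 156 ± 3.87 and 155 ± 4.84 CPM (SD, n = 3 each), so the hepatoma label held for both groups. Of 10 markers of fibroblasts, endothelium and leukocytes, 1 rose, COL1A2, and CDH5 and LST1 had 0 counts in every library. The summed level of these 10 was 22.8 to 24.9 CPM in HK1-overexpressing libraries and 17.2 to 19.1 CPM in Control libraries. Their part in the results below was not tested.

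HK1, the gene of the brain and red cell hexokinase, was nearly absent from Control cells and stood beside VDAC1 in abundance per exon length in HK1-overexpressing cells. It lies at chromosome 10, 69269984 to 69401884 (hg38, plus strand). HK1 had 9723, 10602 and 11101 counts in the HK1-overexpressing libraries, against 13, 15 and 13 counts in the Control libraries. This was 489.8, 509.9 and 525.8 CPM in HK1-overexpressing cells and 0.654, 0.880 and 0.789 CPM in Control cells. The libraries stood as labelled, and the values within each group were close. The log2 fold change was 9.36 with a 95% interval of 9.16 to 9.56 (edgeR adjusted p = 1.15e-17), the largest of all tested genes. This change checks the labels and is not a finding. Counts cover all exons of the gene and do not show which HK1 transcript was overexpressed, nor how much of the signal came from the cell's own gene.

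**Figure D1:**
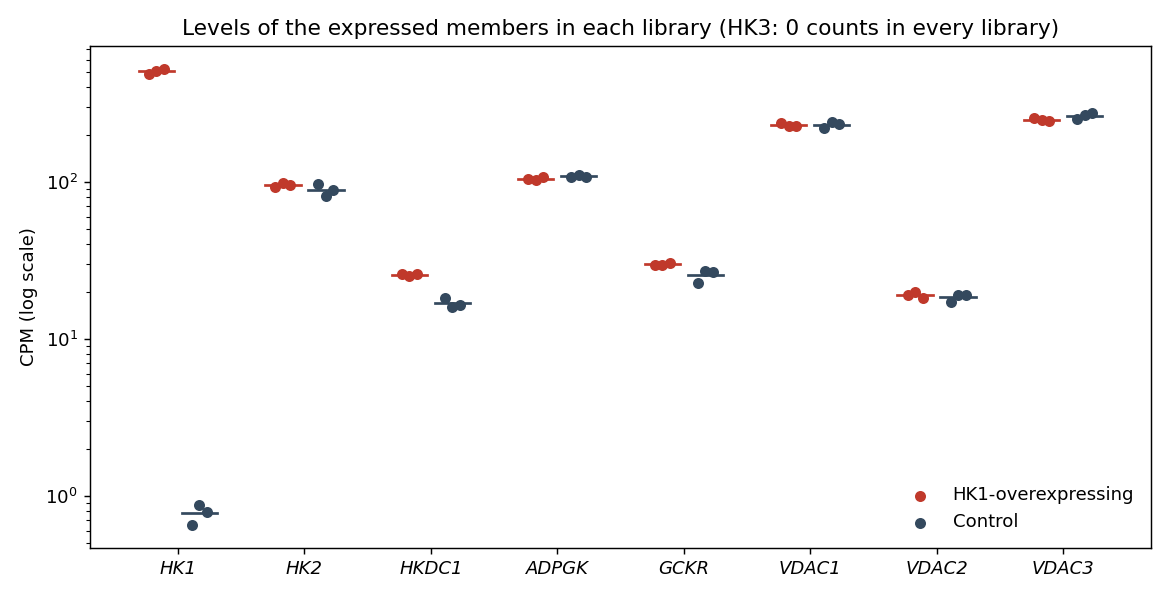
Level of each gene in each library, in CPM on a log axis, with HK1-overexpressing libraries in red left of Control libraries in blue and a bar at each group mean. HK1 is at 489.8 to 525.8 CPM in the overexpressing libraries against 0.654 to 0.880 CPM in Control, HKDC1 is separated with no overlap, and the groups overlap for each VDAC gene.

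Apart from HK1, 7 of the 9 genes passed the filter on low counts, and 1 of these 7, HKDC1, was called. Of all tested genes 8.02% were called, 3.87% higher and 4.15% lower. HK3, the hexokinase of blood cells, had 0 counts in all 6 libraries and was not tested. A count of 0 allows up to 3 counts, or 0.142 to 0.182 CPM in these libraries, which covers counting error only.

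HKDC1 was the hexokinase that rose beside HK1. It lies at chromosome 10, 69220332 to 69267552 (hg38, plus strand). HKDC1 had 25.8, 25.3 and 25.8 CPM in the HK1-overexpressing libraries, against 18.1, 16.1 and 16.4 CPM in the Control libraries. Every HK1-overexpressing library was above every Control library, and the gap between the groups was wider than the spread within either. The log2 fold change was 0.60 (95% interval 0.44 to 0.76, edgeR adjusted p = 0.000191), and 4.68% of tested genes changed at least as much. HKDC1 remained called in every alternative run, with edgeR, DESeq2 or limma-voom adjusted p-values from 8.56e-11 to 0.00434. Exons of HKDC1 overlap those of ENSG00000231748 on the other strand by 143 bases, and that gene had at most 1 count in any library. In bulk RNA, more cells expressing a gene and more of its RNA per cell cannot be told apart.

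HK2, the hexokinase of many tumours, was the most abundant of these hexokinases in Control cells and was not called. HK2 had 92.8, 98.7 and 95.5 CPM in HK1-overexpressing cells, against 96.7, 81.6 and 89.4 CPM in Control cells. The groups overlapped, since the highest Control library lay among the HK1-overexpressing ones. The log2 fold change was 0.10, with a 95% interval of -0.04 to 0.24 (edgeR adjusted p = 0.403). The interval leaves room for a rise of up to 0.24 and a fall of up to 0.04 on the log2 scale. The near copy HK2P1, a pseudogene on chromosome X with 96.7% identity to the HK2 coding sequence, held 0.982% to 1.16% of the summed counts of the pair in HK1-overexpressing libraries and 1.18% to 1.47% in Control libraries.

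GCKR and ADPGK, which bear on glucose phosphorylation outside the HK1 family, were not called either, although neither overlapped between groups. GCKR had 29.4, 29.6 and 30.6 CPM in HK1-overexpressing cells, against 22.6, 27.2 and 26.8 CPM in Control cells, with replicate 1 the lowest of the Control libraries. Its log2 fold change was 0.23 (95% interval 0.06 to 0.40, edgeR adjusted p = 0.0938), a size that 26.3% of tested genes reached. It passed the threshold without Control replicate 2 (edgeR adjusted p = 0.0194), with library totals in place of TMM (0.0498) and with no filter on low counts (0.0466). ADPGK had 104.8, 102.8 and 106.7 CPM in HK1-overexpressing cells, against 106.9, 111.3 and 107.6 CPM in Control cells. The gap of ADPGK was smaller than the spread within a group, and its log2 fold change was -0.05 (95% interval -0.16 to 0.06, edgeR adjusted p = 0.606). Of the 7 genes, HKDC1, GCKR and ADPGK had groups that did not overlap in CPM, which held for 27.8% of all tested genes, 14% higher and 13.9% lower.

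**Figure D2:**
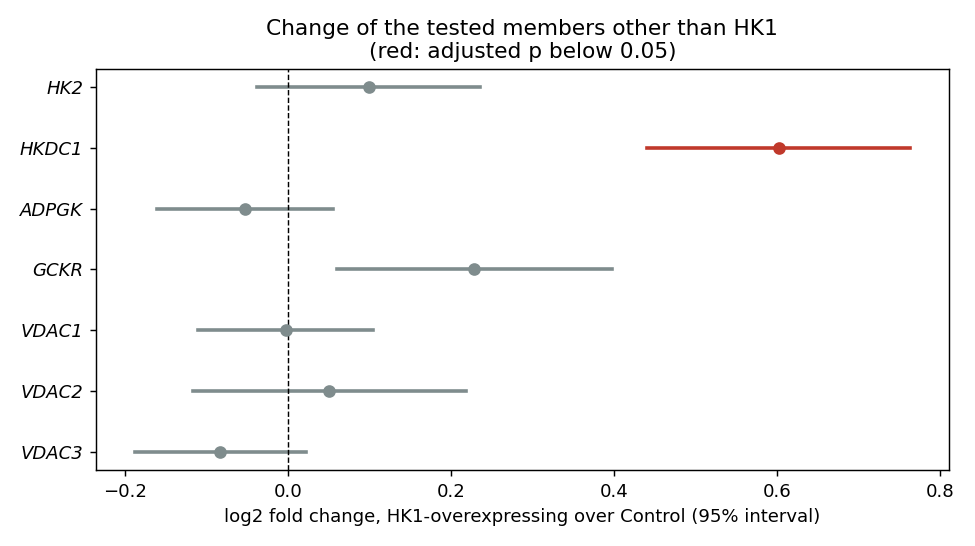
Log2 fold change of the 7 tested genes other than HK1, HK1-overexpressing over Control, with 95% intervals as lines. The intervals of HKDC1, 0.44 to 0.76, and of GCKR, 0.06 to 0.40, lie clear of 0. HKDC1 is the 1 gene with an adjusted p below 0.05, while the interval of VDAC1, -0.11 to 0.10, is centred on 0.

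Of the VDAC channels, the docking sites of HK1 and HK2, 0 of 3 were called with edgeR, DESeq2 or limma-voom, and 0 of 3 had an unadjusted edgeR p under 0.05. VDAC1, the isoform most studied as the hexokinase dock, had 236, 226 and 229 CPM in HK1-overexpressing cells, against 219, 239.8 and 233 CPM in Control cells. All 3 HK1-overexpressing values lay inside the Control range. Its log2 fold change was -0.00254 with a 95% interval of -0.11 to 0.10 (edgeR adjusted p = 0.983), and 98.9% of tested genes changed at least as much. The sign of so small a value turned with the scaling and the filter, and it was 0.04 with library totals and 0.01 with no filter.

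VDAC3, an isoform with a role in redox sensing, had 255, 248 and 243 CPM in HK1-overexpressing cells, against 252, 265 and 273 CPM in Control cells. The groups overlapped, and the log2 fold change was -0.08 (95% interval -0.19 to 0.02, edgeR adjusted p = 0.362). VDAC2, which restrains the cell death protein BAK1, had 18.9, 19.8 and 18.3 CPM in HK1-overexpressing cells, against 17.2, 18.9 and 19.0 CPM in Control cells. The groups overlapped here too, and the log2 fold change was 0.05 (95% interval -0.12 to 0.22, edgeR adjusted p = 0.759). The intervals of the 3 VDAC genes together ran from -0.19 to 0.22 on the log2 scale.

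The low count of VDAC2 stands beside a near copy that held most of the family's counts. VDAC2P5 is a processed pseudogene on chromosome 2, 65205108 to 65205988 (hg38, plus strand). It had 3623, 3654 and 3705 counts in HK1-overexpressing libraries, against 3287, 3054 and 2842 counts in Control libraries. VDAC2 itself had 376, 412 and 387 counts in HK1-overexpressing libraries, against 343, 323 and 313 counts in Control libraries. The 5 VDAC2 pseudogenes together took 89.9% to 90.6% of the summed counts in HK1-overexpressing libraries and 90.1% to 90.6% in Control libraries.

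Of 880 aligned bases, VDAC2P5 and the VDAC2 coding sequence shared 878, or 99.8%, with a longest exact run of 443 bases. The copy lacks coding bases 379 to 381. Of all 100-base windows of the VDAC2 coding sequence, 67.0% occur unchanged in the copy. The only base differences in the aligned stretches are T205C and T825C, with VDAC2 first and positions counted from 1 at the start of the coding sequence. Each is shown with 30 bases on either side and the differing base in capitals, since a read over either base, or over the missing 3 bases, could tell gene from copy. The VDAC2 stretches lie at chr10:75219087-75219147 and chr10:75230899-75230959, and those of VDAC2P5 at chr2:65205283-65205343 and chr2:65205900-65205960, all on the plus strand of GRCh38.
VDAC2 at T205C: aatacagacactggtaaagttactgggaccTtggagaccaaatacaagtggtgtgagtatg
VDAC2P5 at T205C: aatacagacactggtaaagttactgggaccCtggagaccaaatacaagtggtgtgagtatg
VDAC2 at T825C: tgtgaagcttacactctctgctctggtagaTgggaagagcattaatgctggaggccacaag
VDAC2P5 at T825C: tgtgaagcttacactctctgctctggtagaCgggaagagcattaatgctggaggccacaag
The split of counts between VDAC2 and VDAC2P5 is therefore uncertain, and RNA of the gene and of the copy cannot be told apart over most of the coding sequence. VDAC2P5 gave a log2 fold change of 0.05 (95% interval -0.06 to 0.15, edgeR adjusted p = 0.645), the same size as that of VDAC2. VDAC1 has 13 pseudogenes in the table, and these held 18.3% to 19.2% of the summed counts in HK1-overexpressing libraries and 17.9% to 19.4% in Control libraries. Most came from VDAC1P1, with 702 to 767 counts in HK1-overexpressing libraries and 607 to 732 in Control libraries, which is 97.6% identical to the VDAC1 coding sequence. VDAC3P1 held at most 0.135% of the VDAC3 sum. With pseudogene counts added to the parent gene, VDAC1, VDAC2 and VDAC3 were still not called.

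**Figure D3:**
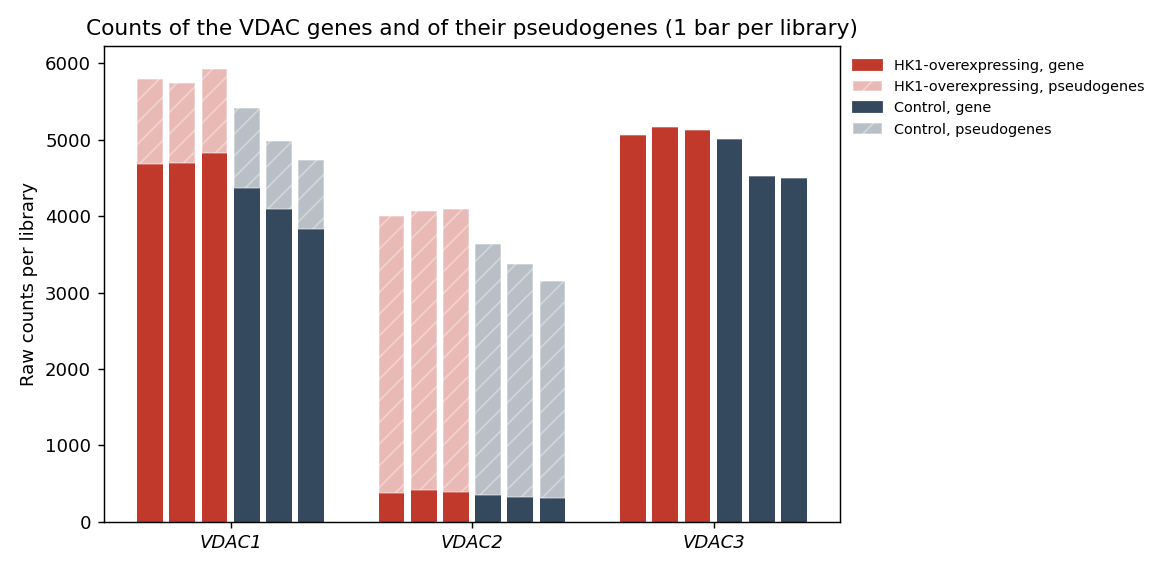
Raw counts of each VDAC gene (solid) with its pseudogenes stacked on top (hatched), 1 bar per library, HK1-overexpressing libraries in red left of Control libraries in blue. Pseudogenes make up about 90% of the VDAC2 bars, 18% to 19% of the VDAC1 bars and almost nothing of the VDAC3 bars in either group.

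Per exon length, with counts taken as assigned, VDAC3 and VDAC1 were the most abundant of the 9 transcripts in Control cells, and HK1 joined them in HK1-overexpressing cells. In HK1-overexpressing cells the order in TPM was VDAC3 at 237.9 ± 4.03, VDAC1 at 229.8 ± 4.002, HK1 at 225 ± 9.70, ADPGK at 53.1 ± 1.17, HK2 at 49.2 ± 1.77, GCKR at 28.9 ± 0.802, VDAC2 at 20.7 ± 0.796 and HKDC1 at 18.5 ± 0.231 (SD, n = 3). In Control cells the order was VDAC3 at 243.7 ± 5.45, VDAC1 at 222.6 ± 1.56, ADPGK at 53.3 ± 1.47, HK2 at 44.5 ± 5.55, GCKR at 23.8 ± 1.45, VDAC2 at 19.3 ± 0.353, HKDC1 at 11.8 ± 1.25 and HK1 at 0.330 ± 0.0360 TPM (SD, n = 3). HK1 and VDAC1 overlapped in HK1-overexpressing cells, with HK1 at 215 to 234 TPM and VDAC1 at 226 to 234 TPM, so their order was not resolved. TPM here divides HK1 by 6876 exon bases and VDAC1 by 3049, while their coding lengths are 2754 and 852 bases. Which HK1 transcript was overexpressed is unknown, so how near HK1 stood to VDAC1 depends on the length used. HK1 was above VDAC1 in HK1-overexpressing replicates 2 and 3, and above VDAC3 in replicate 3. The other neighbours in either order had ranges that did not overlap, although VDAC1 and VDAC3 all but touched at 233.8 TPM in HK1-overexpressing cells, and the place of VDAC2 rests on its uncertain count. Over its own 881 bases, VDAC2P5 averaged 614.7 TPM in HK1-overexpressing cells and 575.5 TPM in Control cells, above VDAC3 in both. How much of this is VDAC2 RNA is unknown. VDAC1 lay at 226 to 234 TPM in HK1-overexpressing cells and 222 to 224 TPM in Control cells, without overlap on this scale, while its CPM values overlapped.

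The hexokinase make-up was led by HK1 in HK1-overexpressing cells and by HK2 in Control cells. Over HK1, HK2, HK3 and HKDC1, HK1 made up 76.6%, 76.6% and 77.5% of hexokinase transcripts per exon length in HK1-overexpressing libraries, against 0.459%, 0.722% and 0.600% in Control libraries. HK2 made up 16.8% ± 0.442 in HK1-overexpressing cells and 78.6% ± 0.662 in Control cells (SD, n = 3 each). HKDC1 made up 6.32% ± 0.224 in HK1-overexpressing cells and 20.8% ± 0.567 in Control cells (SD, n = 3 each). These shares are relative, and neither HK2 nor HKDC1 was called lower in level. Leaving HK1 out, HKDC1 was 28.1%, 26.4% and 27.5% of HK2 plus HKDC1 in HK1-overexpressing libraries, against 20.8%, 21.6% and 20.5% in Control libraries. These groups did not overlap (exact permutation test over the 6 libraries, two-sided p = 0.1, the smallest that 3 against 3 allow). With coding length in place of exon length, HK1 made up 80.7% ± 0.455 in HK1-overexpressing cells and 0.733% ± 0.163 in Control cells (SD, n = 3 each).

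**Figure D4:**
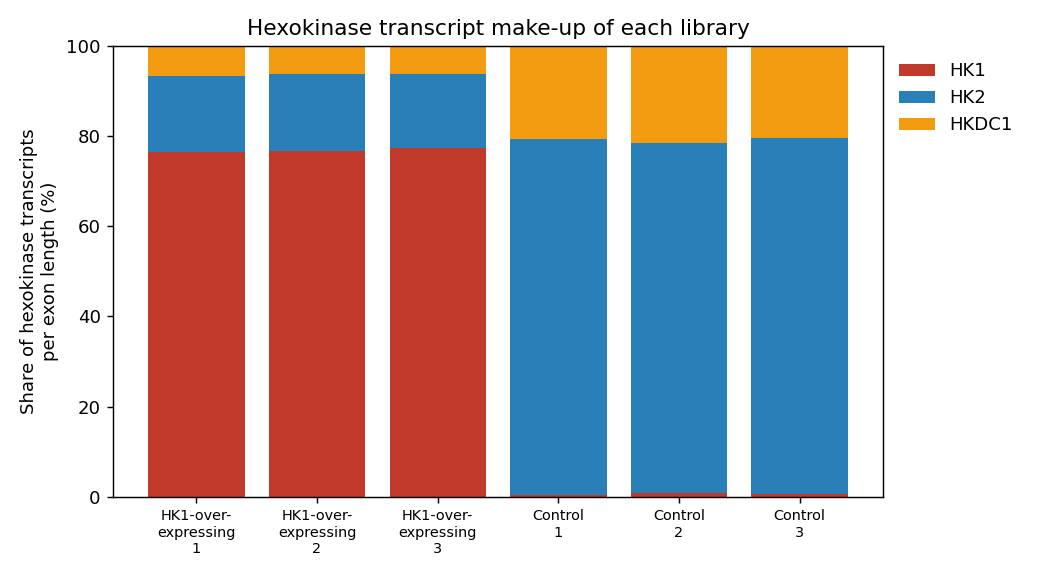
Share of HK1, HK2 and HKDC1 in the summed hexokinase transcripts per exon length, in percent, 1 bar per library, with HK1-overexpressing libraries left of Control libraries and HK3 at 0 throughout. HK1 fills 76.6% to 77.5% of the HK1-overexpressing bars, while HK2 fills about 79% of the Control bars.

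The amount of hexokinase transcript per VDAC transcript followed the added HK1, which makes up most of the hexokinase sum, so its direction is fixed by the overexpression and is a description. The VDAC total, as CPM per kilobase of exon without TMM factors, was 160.0 to 166.4 in HK1-overexpressing libraries and 155.9 to 166.6 in Control libraries, and the groups overlapped. The ratio of hexokinase to VDAC transcripts per exon length was 0.566, 0.608 and 0.626 in HK1-overexpressing libraries, against 0.132, 0.105 and 0.113 in Control libraries. The mean ratio was 5.14 times as high in HK1-overexpressing cells. With HK1 and HK2 alone, both known to dock, the ratio was 0.562 ± 0.0299 in HK1-overexpressing cells and 0.0924 ± 0.0112 in Control cells (SD, n = 3 each). With pseudogene counts added to the parent genes, the ratio of all hexokinases to VDAC was 0.400 ± 0.0209 in HK1-overexpressing cells and 0.0797 ± 0.00906 in Control cells (SD, n = 3 each). Here the added counts were divided by the exon length of the parent, not by that of the shorter pseudogene. These are ratios of RNA, and protein and docking were not measured.

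Within the VDAC family the shares shifted by little. VDAC1 made up 47.1%, 46.5% and 47.5% of VDAC transcripts in HK1-overexpressing libraries, against 45.8%, 46.6% and 45.2% in Control libraries, and these groups overlapped (exact permutation, two-sided p = 0.2). VDAC3 made up 48.8%, 49.0% and 48.3% in HK1-overexpressing libraries, against 50.3%, 49.4% and 50.8% in Control libraries, without overlap (exact permutation, two-sided p = 0.1, the smallest possible). VDAC2 made up 4.23% ± 0.182 in HK1-overexpressing cells and 3.98% ± 0.0559 in Control cells (SD, n = 3 each), which rests on the uncertain count described above. With pseudogene counts added to the parents, the VDAC2 share was 29.1% ± 0.132 in HK1-overexpressing cells and 27.9% ± 0.388 in Control cells (SD, n = 3 each). That sum was divided by the exon length of the parent, 2803 bases for VDAC2, although VDAC2P5 has 881 bases. The size of the share therefore depends on this choice of length.

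HKDC1 ends 2432 bases before the first annotated exon of HK1 on the same strand, so the other genes around HK1 were examined. The HK1 transcript whose coding start is shown above begins further on, at 69318844. Within 500000 bases of either end of HK1 the table lists 47 other genes, of which 21 had 0 counts in all libraries and 12 were tested. HKDC1 was the 1 gene of the 12 that was called, or 8.33%, near the 8.02% of all tested genes. VPS26A, a retromer subunit that lies 95572 bases before HK1, averaged 140.4 ± 7.52 CPM in HK1-overexpressing cells and 126 ± 6.52 CPM in Control cells (SD, n = 3 each; log2 0.16, edgeR adjusted p = 0.117). TSPAN15, a tetraspanin gene 49581 bases after HK1, averaged 34.0 ± 0.930 CPM in HK1-overexpressing cells and 29.8 ± 1.56 CPM in Control cells (SD, n = 3 each; log2 0.19, edgeR adjusted p = 0.102). ENSG00000229261, which lies on the other strand across the start of HKDC1, had 25, 15 and 24 counts in HK1-overexpressing libraries, against 11, 7 and 9 counts in Control libraries (log2 1.03, edgeR adjusted p = 0.0656). These 3 genes and HKDC1 were the 4 of the 12 whose groups did not overlap, all with HK1-overexpressing libraries higher. That is 33.3% of the 12, against 27.8% of all tested genes without overlap and 14% without overlap and higher. SUPV3L1, which lies between VPS26A and HKDC1, averaged 56.0 ± 0.925 CPM in HK1-overexpressing cells and 55.0 ± 1.62 CPM in Control cells (SD, n = 3 each; log2 0.03, edgeR adjusted p = 0.831). The remaining 7 had log2 fold changes of -0.17 to 0.07.

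**Figure D5:**
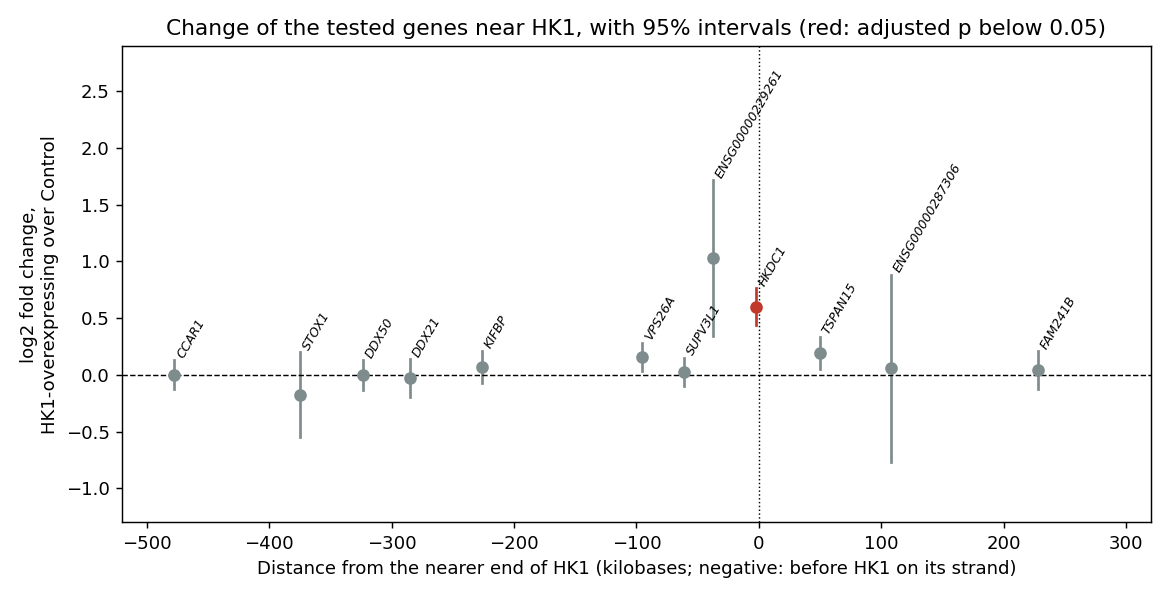
Log2 fold change, HK1-overexpressing over Control, of the 12 tested genes within 500000 bases of HK1, against their distance from the nearer end of HK1, with 95% intervals as lines. HKDC1, just before HK1, is the 1 gene with an adjusted p below 0.05, at 0.60, and most others lie near 0.

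By likeness of log2 CPM over the 6 libraries, the genes closest to HKDC1 among 9445 tested genes with a mean of at least 10 CPM were MYOF, PAQR5 and NRP2, with Pearson r of 0.999, 0.998 and 0.997. The r values hold the difference between the groups and are a description. MYOF, a membrane repair gene of the ferlin family, averaged 160.4 CPM in HK1-overexpressing cells and 82.3 CPM in Control cells (log2 0.96, edgeR adjusted p = 5.35e-07). In all, 196 genes had an r above 0.95 with HKDC1, against 34 with VDAC1. The genes closest to VDAC1 were MRGBP, GNG5 and ATP5MJ, with r of 0.995, 0.995 and 0.992, and their log2 fold changes were -0.01, -0.00304 and 0.000434.

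Among sugar kinases, glucose 6-phosphate enzymes and outer membrane partners, the genes called were KHK, TKFC, SLC37A4 and TOMM40, which fell, and TSPO, which rose. Across 6 lists of 62 genes, 55 were tested, and the 5 called were 9.09% of them, near the 8.02% called over all tested genes. The median log2 fold change was -0.02 over the lists and 0.01 over all tested genes. Groups did not overlap for 19 of the 55 genes, or 34.5%, against 27.8% of all tested genes. The lists were chosen with results of these data known, and their counts are read as a description.

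Among 11 sugar kinases outside the hexokinase family, 2 were called, both lower, or 18.2%, with a median log2 change of -0.08. Over all tested genes the share called was 8.02% in either direction and 4.15% lower. KHK, the ketohexokinase that phosphorylates fructose, had 6.20, 4.81 and 5.97 CPM in HK1-overexpressing cells, against 9.80, 8.56 and 8.50 CPM in Control cells. The groups stood well apart, with a log2 fold change of -0.67 (95% interval -0.92 to -0.41, edgeR adjusted p = 0.00329), and KHK stayed called in every alternative run. TKFC, the triokinase that acts downstream of KHK, had 39.7, 44.2 and 47.9 CPM in HK1-overexpressing cells, against 52.6, 55.1 and 51.0 CPM in Control cells (log2 -0.27, edgeR adjusted p = 0.0351). TKFC was no longer called without HK1-overexpressing replicate 1 (adjusted p = 0.215), HK1-overexpressing replicate 2 (0.136) or Control replicate 3 (0.0801), nor with library totals (0.0703).

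Among 7 tested of 8 enzymes and transporters of glucose 6-phosphate, 1 was called, lower, or 14.3%, with a median log2 change of -0.04. Over all tested genes the share called was 8.02% in either direction and 4.15% lower. SLC37A4, which carries glucose 6-phosphate into the endoplasmic reticulum, averaged 22.9 ± 1.19 CPM in HK1-overexpressing cells and 28.3 ± 1.34 CPM in Control cells (SD, n = 3 each; log2 -0.30, edgeR adjusted p = 0.0199). Leaving out Control replicate 3 gave an adjusted p of 0.0550, and leaving out HK1-overexpressing replicates 1, 2 and 3 in turn gave 0.107, 0.0532 and 0.125, each above the threshold. H6PD, which oxidises glucose 6-phosphate in that compartment, averaged 56.1 ± 1.11 CPM in HK1-overexpressing cells and 61.9 ± 2.88 CPM in Control cells (SD, n = 3 each; edgeR adjusted p = 0.176).

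Among 11 tested of 14 VDAC partners at the inner membrane and contact sites, 1 was called, higher, or 9.09%. This is near the 8.02% called in either direction over all tested genes, of which 3.87% were higher. The median log2 change of the list was 0.10. TSPO, a cholesterol-binding outer membrane protein that associates with VDAC, had 11.5, 9.96 and 11.7 CPM in HK1-overexpressing cells, against 8.50, 8.62 and 8.07 CPM in Control cells (log2 0.39, edgeR adjusted p = 0.0233). The call was lost with DESeq2 (adjusted p = 0.102), without Control replicate 3 (0.0943) and without HK1-overexpressing replicates 1 (0.109) or 3 (0.126). ITPR3, a calcium release channel of the endoplasmic reticulum, had a log2 fold change of 0.17 (edgeR adjusted p = 0.104), and MCU, the pore of the mitochondrial calcium uniporter, one of -0.13 (edgeR adjusted p = 0.185).

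Among 11 tested of 12 genes of outer membrane import and beta-barrel assembly, which place VDAC in the membrane, 1 was called, lower, or 9.09%. This is near the 8.02% called in either direction over all tested genes, of which 4.15% were lower. The median log2 change of the list was -0.07. TOMM40, the import channel, averaged 117 ± 5.22 CPM in HK1-overexpressing cells and 136 ± 6.65 CPM in Control cells (SD, n = 3 each; log2 -0.22, edgeR adjusted p = 0.0270). It was not called with library totals (adjusted p = 0.0657), nor when Control replicate 3 (0.0517) or HK1-overexpressing replicates 1 (0.179), 2 (0.151) or 3 (0.0546) were left out. TOMM20, an import receptor, had a log2 fold change of -0.15 (edgeR adjusted p = 0.0662), and SAMM50, the core of the beta-barrel assembly machinery, one of -0.13 (edgeR adjusted p = 0.315).

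Of 10 tested BCL2 family genes of 11, which regulate outer membrane permeability, and of 5 tested regulators of docking of 6, 0 were called with edgeR, DESeq2 or limma-voom, against 8.02% of all tested genes with edgeR. By unadjusted edgeR p under 0.05 there were 1 and 3, or 10% and 60%, against 21.9% of all tested genes. Without Control replicate 1, edgeR called 1 gene in each of these lists, lower in the BCL2 family and higher among the docking regulators. In the BCL2 family the median log2 change was 0.01. BCL2L1, which encodes the survival protein BCL-XL, had a log2 fold change of -0.16 (edgeR adjusted p = 0.0714), and BCL2L2 one of 0.13 (edgeR adjusted p = 0.309). Among the docking regulators the median was -0.08. TIGAR, a sugar phosphatase reported to bind HK2 at mitochondria, averaged 6.39 ± 0.719 CPM in HK1-overexpressing cells and 4.85 ± 0.595 CPM in Control cells (SD, n = 3 each; log2 0.39, edgeR adjusted p = 0.0891). AKT1, a kinase that promotes docking, had a log2 fold change of -0.16 (edgeR adjusted p = 0.113).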

How the data were processed

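RNA-seq was analysed for 3 HK1-overexpressing and 3 Control samples of Huh7 cells. The deposited table holds raw counts, which the authors obtained per gene name from exons of GENCODE release 47 with featureCounts 1.5.3 on read pairs, per the file headers. Trim Galore, Subread and hg38 are named, per the submitters' processing notes. The recorded command sets no strand option, although the library kit is stranded per the labels, so genes that overlap on opposite strands cannot be told apart. It also sets no option for reads with several places, so counts of near-identical copies are uncertain. One count column, entered under the unit other, holds raw counts as deposited by the authors, like the rest, and all 6 columns were checked to be whole numbers.

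Counts were scaled by TMM, filtered with filterByExpr (16734 of 79172 gene names kept) and compared with edgeR 4.0.16 in R 4.3.3 by the quasi-likelihood test with robust dispersion and no term besides group; p-values were adjusted by Benjamini-Hochberg over all tested genes and called at 0.05. CPM and TPM were computed here from the deposited counts. TPM and shares used the summed exon length on the primary chromosome. Shares and ratios were compared by an exact permutation test over 6 samples, two-sided, which cannot go below 0.1. Intervals are at 95%. Coding sequences were aligned with Biopython 1.88 from GENCODE release 29 transcripts, and a 100-base window counted as shared only if identical. Replicate numbers were not taken as pairs in the main test. The correlation of same-numbered deviations was 0.00707, 0.0579 and -0.0304, which cannot show whether samples were prepared in pairs. The test was tested on simulated data.

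The genes and lists were chosen with earlier results of these data known. The text names all 9 genes, the tested neighbours of HK1, near copies, opposite-strand partners, up to 4 called genes of each list, the 2 uncalled genes of smallest p where fewer than 2 were called, and the 3 genes most like HKDC1 and VDAC1. A gene that the rule names is not reported here. The alternatives tried were RLE size factors, library totals, HK1 removed, other filters, DESeq2 1.42.0, limma-voom 3.58.1, no robust dispersion, a replicate block, leaving out each replicate and, chosen after seeing the data, pseudogene counts added to parent genes and coding length.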

Additional observations from a re-analysis of the deposited data

How the results depend on the processing

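Besides HK1, the number of called genes among the 9 was 1; it was 2 with library totals and with no filter, and 1 to 2 when a replicate was left out, GCKR being the addition. Among the neighbours of HK1 the count of 1 became 2 with library totals and was 1 to 2 with a replicate left out: TSPAN15 was added with library totals (edgeR adjusted p = 0.0498) and without Control replicate 2 (0.0267), and VPS26A without Control replicate 1 (0.0498). The 1342 calls over all genes ranged from 536 to 2257, lowest without HK1-overexpressing replicate 2 (1: 554, 3: 598) and 809 without Control replicate 3, and highest without Control replicate 1; the 5 list calls ranged from 1 to 12. With library totals 66.0% of calls were higher, against 48.3%. The log2 change of VDAC1 turned to 0.0361 with library totals, 0.0111 with no filter and 0.0115 at a mean of at least 5 CPM, and was -0.0332 to 0.0309 with a replicate left out; it was never called.

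As differences, HK1-overexpressing minus Control, coding length moved the HK1 share to 80.0 percentage points (76.3 by exon length), the HKDC1 share of HK2 plus HKDC1 to 5.24 (6.36) and the hexokinase to VDAC ratio to 0.327 (0.483). Added pseudogene counts, divided by the parent's exon length, moved that ratio to 0.320 and the VDAC1 share to 0.306 (1.21). The cause of the other changes was not tested. The replicate block called 1074 genes over all; of 17 genes whose calls were compared (8 of the 9, 3 neighbours of HK1, the 5 called list genes and VDAC2P5) it changed that of TOMM40 alone (adjusted p = 0.0521). The protein length planned for the shares was not run.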

Other observations

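HK2-DT, a transcript that starts beside HK2 on the other strand, had 43, 40 and 43 counts in HK1-overexpressing libraries, against 52, 45 and 48 counts in Control libraries, without overlap (log2 -0.41, edgeR adjusted p = 0.164). SLC25A6, an ADP/ATP carrier, varied most within the Control group, with 2, 63 and 4 counts in Control libraries, against 101, 84 and 59 counts in HK1-overexpressing libraries. It was singled out after its values were seen, and was not called (log2 1.60, 95% interval -1.29 to 4.48, edgeR adjusted p = 0.486). TOMM6 was listed at 0 counts in every library.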
